A study of Mus musculus with 24 samples.

Results

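Gene expression in the mandibular prominence of mouse embryos lacking p63 was compared with that of heterozygous embryos at embryonic day 12 (E12), when tooth placodes form along the jaw epithelium. The comparison rests on 6 of the 24 arrays of the study, chosen by their labels: 3 arrays of E12 p63-/- embryos and 3 of E12 p63+/- embryos, 1 array per embryo. Both genotypes came from intercrosses of the B6.129S7-Trp63tm2Brd/J line, which carries a targeted Trp63 allele. The p63-/- embryos carried 2 mutant copies and the p63+/- embryos 1, so every embryo carried the targeted allele and the comparison group was not wild type. Within a genotype the 3 embryos came from different litters, and no RNA was pooled. The study also holds 3 arrays of each genotype at E10, E11 and E13, which served to estimate the spread of each gene and to look at the E12 differences on other embryos.

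p63, encoded by Trp63, is a transcription factor of the p53 family that is made in the basal cells of stratified and appendage-forming epithelia. It is needed for the single-layered surface ectoderm to commit to a stratified fate, with basal keratins, hemidesmosomes and desmosomes, and mice without it lack epidermis and teeth. The tooth placode is a local thickening of the oral epithelium that sends Wnt, Shh, Bmp and Fgf signals to the mesenchyme below, and the mesenchyme answers through transcription factors such as Msx1, Pax9 and Barx1.

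RNA was measured on Illumina bead arrays, and values are given as normalized log2 intensity, on which a difference of 1 is a doubling of signal. Probes of 12698 genes passed a filter on detection, and the median difference over all of them, p63-/- minus p63+/-, was -0.0036. The E12 arrays detected 45.2% to 47.4% of the 45281 probes. Defining genes of mandibular mesenchyme were bright on all 6 arrays: Msx1 averaged 12.98 ± 0.41 in p63-/- and 12.98 ± 0.20 in p63+/- prominences, and Barx1, a marker of the proximal jaw, averaged 12.58 ± 0.09 in p63-/- and 12.45 ± 0.23 in p63+/- prominences (SD, n = 3 each). Epithelium was present in both genotypes, since E-cadherin (Cdh1) averaged 9.95 ± 0.41 in p63-/- and 9.94 ± 0.33 in p63+/- prominences. The 6 arrays shared 1 slide, with p63-/- in positions 1 to 3 and p63+/- in positions 4 to 6, so position and genotype cannot be told apart. E12 p63-/- replicate 2 was the only E12 array with clear signal for the Y-linked genes Eif2s3y (10.7) and Kdm5d (9.77), and its Xist value was 4.61, against 11.2 to 11.8 on the other 5 arrays.

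Trp63 itself was lower in p63-/- prominences, but the difference did not pass the test. Its probe read 9.59, 9.11 and 9.33 in p63-/- prominences, against 10.66, 10.22 and 10.40 in p63+/- prominences. The groups did not overlap, and all 3 p63-/- values lay below the lowest p63+/- value. The difference was -1.08 on the log2 scale (SE 0.24, 95% interval -1.58 to -0.58), with a limma p adjusted over all 12698 genes of 0.0655. The same-numbered embryos differed by -1.07, -1.11 and -1.06. Its position with respect to the targeted exons is not known here, so its signal does not test the loss of p63 function, and a second Trp63 probe was not detected on any E12 array. The difference passed the threshold with quantile normalization alone (-0.97, adjusted p = 0.0453), with a larger offset (-1.04, adjusted p = 0.0495) and without E10 p63-/- replicate 3 (-1.08, adjusted p = 0.0476).

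Loss of p63 went with lower signal of basal-layer genes and higher signal of simple-epithelial genes. At an adjusted p of 0.05, 38 genes differed between the genotypes at E12, or 0.299% of the genes tested. Of these, 22 were lower in p63-/- prominences (0.173%) and 16 were higher (0.126%), with a median size of 1.58. The authors' processed values gave 21 lower and 6 higher genes, and with quantile normalization alone 24 were lower and 11 higher. In all 38 genes the 3 p63-/- values lay on 1 side of the 3 p63+/- values. All 3 same-numbered pairs of embryos then differ in the same direction by necessity, so the pairs add nothing here. For comparison, 447 of all genes tested (3.52%) had all 3 p63-/- arrays lower and 436 (3.43%) had all 3 higher. RNA came from whole prominences, so fewer cells of a type and less RNA per cell cannot be told apart in any of these differences. Leaving out E12 p63+/- replicate 1 left 24 calls and leaving out E12 p63+/- replicate 2 left 23, against 30 to 38 without any other E12 array. With only the 6 E12 arrays in the fit, 8 calls were left. Among the gene lists described below they comprised 1 keratin and stratification gene, 2 hemidesmosome genes, 1 simple-epithelial gene and 1 placode signal, and no call was left among the epidermal regulators, tight junction genes, Wnt readouts, Fgf readouts or Notch genes.

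**Figure D1:**
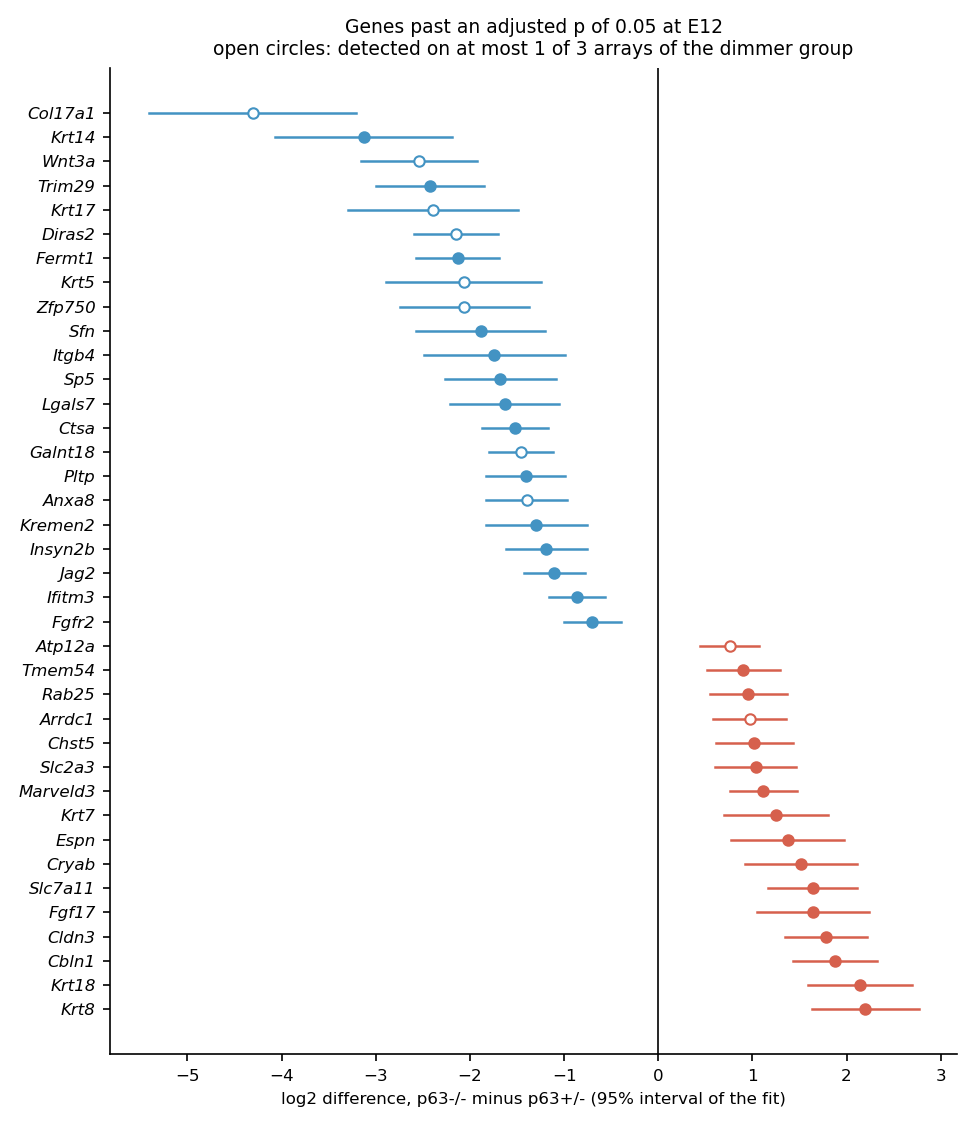
Log2 difference between E12 p63-/- and p63+/- prominences (p63-/- minus p63+/-, n = 3 each) for the 38 genes past an adjusted p of 0.05, with 95% intervals of the limma fit. Blue marks the 22 lower genes and red the 16 higher genes, and open circles mark genes detected on at most 1 of the 3 arrays of the dimmer genotype; Col17a1 is lowest at -4.31 and Krt8 highest at 2.20.

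Among the keratins and other genes of stratified epithelium, 5 of 9 measured members fell and none rose, against 0.173% and 0.126% of all genes. The median difference of this list was -1.93, against -0.0036 for all genes. This and the following lists were chosen with earlier results of these data known, so their counts and medians are descriptions. Krt14, the acidic keratin of the basal layer, read 10.06, 8.92 and 7.97 in p63-/- prominences, against 12.94, 12.53 and 10.87 in p63+/- prominences. The groups did not overlap, and replicate 3 was the lowest of each genotype. Krt14 fell by 3.13 (SE 0.45, adjusted p = 0.00111), which is 8.75-fold, and the same-numbered pairs differed by -2.88, -3.61 and -2.90. Krt5, its type II partner, read 4.83, 5.55 and 4.76 in p63-/- prominences, against 7.95, 7.63 and 5.76 in p63+/- prominences. Only 1 of the 3 p63-/- arrays detected Krt5, and p63+/- replicate 3 lay far nearer to the p63-/- values than the other two. Krt5 averaged 5.05 in p63-/- and 7.12 in p63+/- prominences and was at least 3.01-fold lower in p63-/- (adjusted p = 0.0215). Such a bound sets the brighter group's mean against the detection floor of the dimmer group's arrays.

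Krt17, a keratin of embryonic ectoderm and epithelial appendages, read 6.07, 5.21 and 5.34 in p63-/- prominences, against 8.65, 8.40 and 6.74 in p63+/- prominences. It too was detected on 1 of 3 p63-/- arrays, and p63+/- replicate 3 was again the lowest of its group. Krt17 averaged 5.54 in p63-/- and 7.93 in p63+/- prominences and was at least 4.73-fold lower in p63-/- (adjusted p = 0.0123). Trim29, a tripartite-motif protein of basal epithelial cells, read 5.49, 5.70 and 5.60 in p63-/- prominences, against 8.59, 7.86 and 7.62 in p63+/- prominences. The p63-/- values spanned only a narrow range just above the detection floor, well apart from p63+/-. Trim29 fell by 2.43 (SE 0.27, adjusted p = 7.7e-05). Sfn, the epithelial 14-3-3 sigma protein, read 5.50, 6.85 and 5.17 in p63-/- prominences, against 8.26, 7.67 and 7.26 in p63+/- prominences. The groups did not overlap, with p63-/- replicate 2 the highest of its group, and Sfn fell by 1.89 (SE 0.33, adjusted p = 0.00814).

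Krt15, another basal type I keratin, read 8.48, 8.36 and 7.95 in p63-/- prominences, against 10.69, 10.22 and 9.65 in p63+/- prominences. Its difference of -1.93 missed the threshold (adjusted p = 0.0595), although the groups did not overlap. When replicate number entered as a block, Krt15 passed (adjusted p = 0.00491), as did Fxyd3, an ion-transport regulator of epithelia, at -1.11 (adjusted p = 0.255 without the block and 0.0326 with it). Neither passed when the block was applied to the E12 arrays alone (adjusted p = 0.0686 for Krt15 and 0.166 for Fxyd3). In limma Krt15 also passed with the authors' processed values (adjusted p = 0.0325), quantile normalization alone (0.022) and a larger offset (0.033). Krt15 passed too with a stricter detection filter (0.0491) and with array weights (0.0326), and Fxyd3 with array weights (0.0338). Under the remaining settings neither passed. Krt10, a keratin of suprabasal epidermis, differed by -0.10 and Krt4, a keratin of stratified mucosa, by 0.18, and neither passed. The count of 5 keratin and stratification genes was 3 when p63-/- replicate 1 or p63+/- replicate 2 was omitted, and 2 when p63-/- replicate 3 or p63+/- replicate 1 was omitted. Without p63-/- replicate 2 it was 4, and without p63+/- replicate 3 it stayed at 5.

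**Figure D2:**
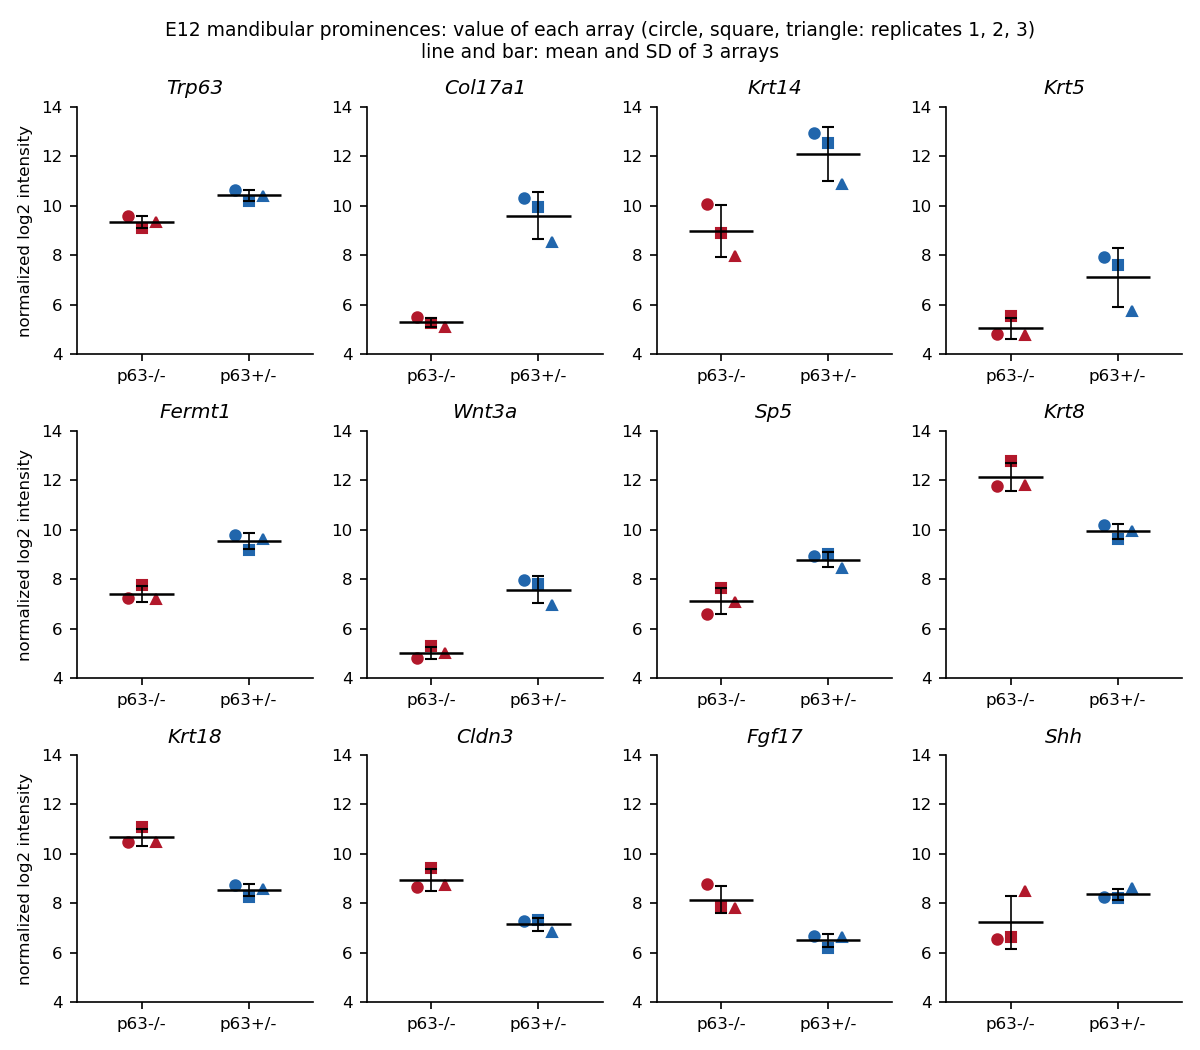
Normalized log2 intensity of 12 genes on each E12 array, p63-/- (red, left) and p63+/- (blue, right), with the mean and SD of 3 arrays; circles, squares and triangles are replicates 1, 2 and 3. Trp63 and Shh are shown as well although neither passed the test; in Shh the p63-/- replicate 3 value of 8.48 sits among the p63+/- values.

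The genes that anchor basal cells to the basement membrane split sharply. Of 13 measured hemidesmosome and basement membrane genes, 3 fell and none rose, against 0.173% and 0.126% of all genes tested. The median difference was -0.03. Col17a1, the transmembrane collagen XVII of hemidesmosomes, read 5.49, 5.28 and 5.11 in p63-/- prominences, against 10.33, 9.96 and 8.53 in p63+/- prominences. Only 1 p63-/- array detected it, and the lowest p63+/- value stood more than 3 log2 units above the highest p63-/- value. Col17a1 averaged 5.30 in p63-/- and 9.60 in p63+/- prominences and was at least 17.3-fold lower in p63-/- (adjusted p = 1.56e-04). Its other 2 probes differed by -2.42 and -3.26, and both passed when all probes were tested one by one.

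Itgb4, the beta-4 integrin subunit of hemidesmosomes, read 7.45, 7.13 and 6.84 in p63-/- prominences, against 9.24, 9.06 and 8.35 in p63+/- prominences. All p63-/- values lay below all p63+/- values, and Itgb4 fell by 1.74 (SE 0.36, adjusted p = 0.0393). A second Itgb4 probe at -1.30 did not pass. The Itgb4 call was kept under 12 of 21 alternative settings of the processing. It was lost when any E12 array other than p63+/- replicate 3 was omitted, which left 2 calls in this list. Fermt1, the integrin activator kindlin-1, read 7.25, 7.77 and 7.23 in p63-/- prominences, against 9.80, 9.20 and 9.64 in p63+/- prominences. Both groups were tight, and Fermt1 fell by 2.13 (SE 0.21, adjusted p = 2.77e-05). Dst, which encodes several isoforms of a cytoskeletal linker including the hemidesmosomal protein BPAG1, gave different answers on its probes. Its brightest probe differed by 0.03 and did not pass, and neither did 2 other probes at 0.17 and 0.05. The remaining Dst probe read 5.23, 5.64 and 5.41 in p63-/- prominences, against 8.31, 7.99 and 8.20 in p63+/- prominences. Only 1 p63-/- array detected it, the genotypes lay far apart, and it passed when all probes were tested one by one (limma, adjusted p = 1.54e-05). Which isoforms each probe reads is not known here. The partner subunit Itga6 differed by -0.11, the linker Plec by -0.03, the laminin chains Lamb3 and Lama5 by 0.09 and 0.06, and the anchoring-fibril collagen Col7a1 by -0.65, and none of these passed.

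On their brightest probes none of the 7 measured desmosome genes passed the test, against 0.299% of all genes, and the median difference was -0.38. The plakophilins pointed in opposite directions in their values. Pkp1, a plakophilin of stratified epithelia, read 5.51, 5.03 and 5.08 in p63-/- prominences, against 7.18, 6.13 and 5.49 in p63+/- prominences, with a difference of -1.06 (adjusted p = 0.506). Pkp2, the plakophilin of simple epithelia and heart, read 8.42, 8.82 and 8.29 in p63-/- prominences, against 7.58, 6.64 and 7.44 in p63+/- prominences, with a difference of 1.29 (adjusted p = 0.113). The groups overlapped for Pkp1 and not for Pkp2. A dimmer Pkp2 probe, at 1.41, passed when all probes were tested one by one (adjusted p = 0.00247), and the dimmest, at 0.82, did not. Pkp2 also passed with the mean of its probes (1.17, adjusted p = 0.0267), with array weights (1.37, adjusted p = 0.00541) and without E10 p63-/- replicate 3 (1.29, adjusted p = 0.0063).

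Of 18 measured p63-pathway and epidermal regulators, 3 fell and none rose, against 0.173% and 0.126% of all genes. Their median difference was -0.17. Zfp750, a transcription factor of epidermal differentiation that acts downstream of p63, read 5.29, 5.67 and 4.99 in p63-/- prominences, against 8.08, 7.34 and 6.71 in p63+/- prominences. It was detected on 1 of 3 p63-/- arrays, averaged 5.32 in p63-/- and 7.38 in p63+/- prominences and was at least 3.50-fold lower in p63-/- (adjusted p = 0.00345). Jag2, a Notch ligand of the oral epithelium, read 5.70, 6.07 and 6.12 in p63-/- prominences, against 7.21, 6.87 and 7.11 in p63+/- prominences. The groups stood clearly apart, and Jag2 fell by 1.10 (SE 0.16, adjusted p = 9.57e-04).

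Fgfr2, the receptor for Fgf signals in jaw epithelium and mesenchyme, read 11.81, 12.01 and 11.65 in p63-/- prominences, against 12.57, 12.64 and 12.35 in p63+/- prominences. Its groups did not overlap, and Fgfr2 fell by 0.70 (SE 0.14, adjusted p = 0.0393), but its 2 other probes past the filter differed by -0.10 and -0.58 without passing. The call for Fgfr2 was lost when p63-/- replicate 1 or 3 or p63+/- replicate 1 or 2 was left out (adjusted p = 0.14 to 0.279). Transcription factors that act beside p63 in the surface ectoderm did not pass the test, with differences close to 0: Tfap2a by 0.30, Tfap2c by 0.20, Grhl2 by 0.15, Grhl3 by -0.28 and Klf4 by 0.01. In the wider Notch pathway, Jag2 was the only one of 14 measured genes that passed, against 0.299% of all genes. The median difference of the Notch list was -0.17. Jag1 differed by -0.48, the target Nrarp by -0.40 and the receptor Notch1 by -0.34, and none of these passed. Hey2, also of this list, differed by -0.59, -0.96 and -0.98 in the same-numbered pairs and did not pass either. At an unadjusted p of 0.05 in limma, 3 of the 14 were lower and none higher, against 1.25% and 1.8% of all genes.

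Genes of simple and general epithelium went the other way. Of 17 measured members 4 rose and none fell, against 0.126% and 0.173% of all genes. All 17 differences were above 0, with a median of 0.60. At an unadjusted p of 0.05 in limma, 11 of the 17 were higher, against 1.8% of all genes tested. The list was chosen with earlier results of these data known, so this share is a description and no test of the list. Krt8, the type II keratin of simple epithelia, read 11.80, 12.78 and 11.83 in p63-/- prominences, against 10.21, 9.64 and 9.96 in p63+/- prominences. Krt18, its type I partner, read 10.46, 11.07 and 10.50 in p63-/- prominences, against 8.74, 8.27 and 8.59 in p63+/- prominences. In both keratins p63-/- replicate 2 was the highest array and p63+/- replicate 2 the lowest, and the genotypes lay far apart. Krt8 rose by 2.20 (SE 0.27, adjusted p = 1.56e-04) and Krt18 by 2.14 (SE 0.26, adjusted p = 1.56e-04), or 4.59-fold and 4.42-fold.

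Krt7, a further keratin of simple epithelia, read 8.48, 9.22 and 8.93 in p63-/- prominences, against 7.78, 7.57 and 7.52 in p63+/- prominences. It rose by 1.25 (SE 0.26, adjusted p = 0.0479), with no overlap between the groups. Krt7 kept its call under only 8 of 21 alternative settings of the processing. The block at E12 alone was among those where it did not pass (adjusted p = 0.076). Rab25, a GTPase of epithelial membrane recycling, read 8.92, 9.60 and 8.84 in p63-/- prominences, against 8.45, 7.98 and 8.06 in p63+/- prominences. It rose by 0.95 (SE 0.20, adjusted p = 0.0393), but lost the call when replicate number entered as a block at all stages (adjusted p = 0.127), though not with the block at E12 alone (adjusted p = 0.045). Members that did not pass included the membrane protease Prss8 at 1.17 (adjusted p = 0.388), the splicing regulator Esrp2 at 0.41, the keratin Krt19 at 0.51 and Cdh1 at 0.01 (95% interval -0.48 to 0.50). The count of 4 was 2 when p63-/- replicate 2, p63+/- replicate 2 or p63+/- replicate 3 was omitted, and 3 without any other E12 array. It was also 2 with the authors' processed values, without a detection filter and with the Xist value as a covariate.

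Tight junction genes shared this direction in most of their values, with a median difference of 0.56. Of 13 measured members 2 were higher past the threshold and none lower, against 0.126% and 0.173% of all genes. Cldn3, a claudin of simple epithelia, read 8.66, 9.44 and 8.73 in p63-/- prominences, against 7.31, 7.32 and 6.85 in p63+/- prominences. The lowest p63-/- array exceeded the highest p63+/- array by more than 1 log2 unit, and Cldn3 rose by 1.78 (SE 0.21, adjusted p = 9.57e-05). Marveld3, a membrane protein of the tight junction, read 7.58, 7.23 and 7.19 in p63-/- prominences, against 6.41, 6.29 and 5.94 in p63+/- prominences. Its groups did not overlap either, and Marveld3 rose by 1.12 (SE 0.17, adjusted p = 0.00197). Tjp3, a scaffold protein of the junction, was detected on 3 p63-/- arrays and on no p63+/- array, and averaged 6.35 in p63-/- and 5.34 in p63+/- prominences (adjusted p = 0.0541). The claudins Cldn10, Cldn6 and Cldn4 differed by 1.26, 0.86 and 0.56 without passing. With the replicate block at all stages the count was 4, as Tjp3 (adjusted p = 0.0431) and Cldn10 (adjusted p = 0.046) passed too, but with the block at E12 alone it stayed at 2 (adjusted p = 0.073 for Tjp3 and 0.104 for Cldn10). Cldn5, the claudin of blood vessels, differed by -0.14.

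**Figure D3:**
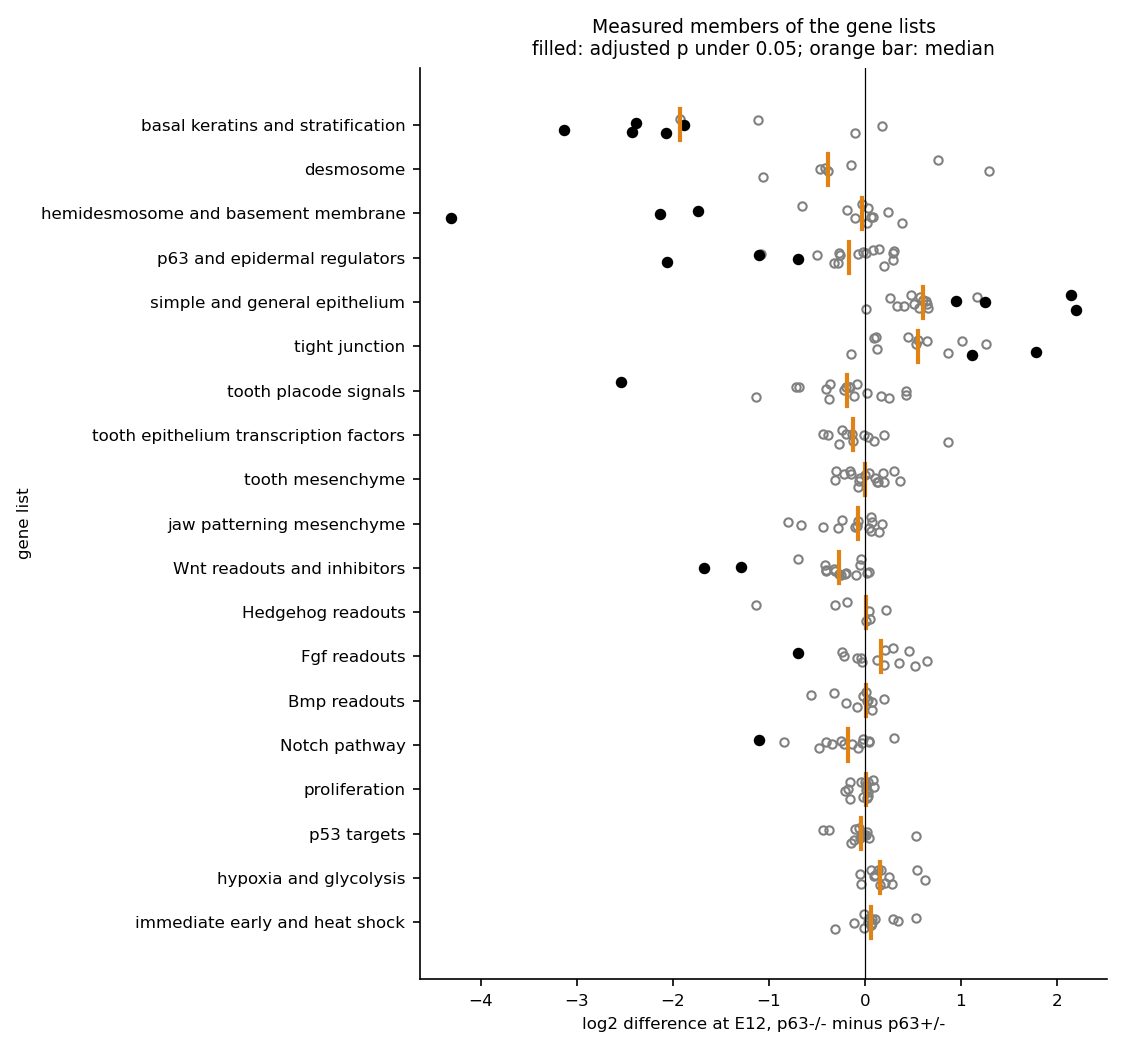
Log2 difference at E12 (p63-/- minus p63+/-) of every measured member of 19 gene lists; filled points passed an adjusted p of 0.05, open points did not, and the orange bar is the median of a list. The keratin and stratification list has its median at -1.93, the simple epithelium list at 0.60 and the tooth mesenchyme list near 0.

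Of the signals of the tooth placode, 1 of 18 measured genes fell and none rose, against 0.173% and 0.126% of all genes. The median difference was -0.18. Wnt3a, a canonical Wnt ligand, read 4.81, 5.29 and 5.03 in p63-/- prominences, against 7.96, 7.83 and 6.96 in p63+/- prominences. No p63-/- array detected Wnt3a and all 3 p63+/- arrays did. Wnt3a averaged 5.04 in p63-/- and 7.59 in p63+/- prominences and was at least 4.29-fold lower in p63-/- (adjusted p = 9.57e-05).

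Shh, the ligand of Hedgehog signalling made by dental epithelium, read 6.57, 6.66 and 8.48 in p63-/- prominences, against 8.26, 8.24 and 8.63 in p63+/- prominences. Replicates 1 and 2 of p63-/- lay below the p63+/- range, but p63-/- replicate 3 lay within it. The difference of -1.14 (SE 0.49, adjusted p = 1) therefore did not hold against the spread between embryos, and a second Shh probe gave -0.94. Wnt4, a Wnt ligand of oral epithelium, differed by -0.72 (adjusted p = 0.686), and Edaradd, which couples the ectodysplasin receptor to its downstream signal, by -0.69 (adjusted p = 1). Bmp4 differed by -0.11 (95% interval -0.48 to 0.26), Fgf8 by 0.25 (95% interval -0.64 to 1.13), Wnt10a by -0.19 and Wnt7b by -0.22. None of these other placode signals passed the test.

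Transcription factors of the tooth epithelium and the genes of tooth mesenchyme showed no calls, where the share over all genes tested was 0.299%. Of 12 measured epithelial factors none passed, with a median difference of -0.12. The largest value was that of Sp6, a factor of dental epithelium, which read 6.96, 7.73 and 7.44 in p63-/- prominences, against 6.75, 6.49 and 6.29 in p63+/- prominences. Its groups did not overlap, but the difference of 0.87 did not pass (adjusted p = 0.464). Pitx1 differed by -0.01, Dlx2 by 0.20 and Lef1 by -0.26. Of 17 measured tooth mesenchyme genes none passed at an unadjusted p of 0.05 in limma, where 3.06% of all genes did, and the median difference was -0.0023. At either threshold, lists of this size can be expected to hold few calls or none. Msx1 differed by -0.0023 (95% interval -0.39 to 0.39), Barx1 by 0.13 (95% interval -0.32 to 0.57) and Pax9 by 0.37 (adjusted p = 1). Of 14 measured jaw patterning genes none passed, with Foxd1 at -0.80 and Foxf2 at -0.67 the largest values in size.

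Wnt readouts and inhibitors held 2 lower genes among 17 measured and none higher, against 0.173% and 0.126% of all genes. Their median difference was -0.26. Sp5, a transcription factor directly induced by canonical Wnt signalling, read 6.61, 7.67 and 7.10 in p63-/- prominences, against 8.93, 9.01 and 8.46 in p63+/- prominences. Kremen2, which binds the secreted Wnt antagonist Dkk1, read 8.41, 8.28 and 7.36 in p63-/- prominences, against 9.61, 9.39 and 8.94 in p63+/- prominences. In neither gene did the genotypes overlap. Sp5 fell by 1.68 (SE 0.28, adjusted p = 0.00686) and Kremen2 by 1.29 (SE 0.26, adjusted p = 0.029). Axin2, the most widely used readout, differed by -0.20 (95% interval -0.59 to 0.19), Lef1 by -0.26 and Lgr5 by -0.70, none passing. The count of 2 dropped to 1 when p63-/- replicate 1 or 3 was omitted and to 0 when p63+/- replicate 1 or 2 was omitted.

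Among the readouts of other pathways the only call was Fgfr2 in the Fgf list, which had 14 measured genes and a median difference of 0.17. The 7 measured Hedgehog readouts had a median of 0.008 and the 11 Bmp readouts also 0.008, with no call; the Hedgehog target Ptch1 differed by -0.19 and the Bmp target Id4 by -0.56 (adjusted p = 0.463). Proliferation genes (16 measured, median 0.01), p53 targets (14, median -0.04), hypoxia and glycolysis genes (13, median 0.15) and immediate early and heat shock genes (14, median 0.06) held no call either. With 0.299% of all genes tested called, lists of this size can be expected to hold few or none. The cell-cycle inhibitor Cdkn1a, a target of p53, differed by 0.54 (adjusted p = 1).

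The remaining lower genes belonged to no list. Diras2, a small GTPase of the Ras family, read 5.14, 5.27 and 4.91 in p63-/- prominences, against 7.51, 7.12 and 7.14 in p63+/- prominences. No p63-/- array detected it, and Diras2 averaged 5.11 in p63-/- and 7.26 in p63+/- prominences and was at least 3.41-fold lower in p63-/- (adjusted p = 2.77e-05). Lgals7, the galectin of stratified epithelia, read 5.74, 6.65 and 5.35 in p63-/- prominences, against 7.98, 7.54 and 7.11 in p63+/- prominences. The groups did not overlap and Lgals7 fell by 1.63 (SE 0.28, adjusted p = 0.00702), whereas of its 2 other probes 1 passed at -1.21 and 1 differed by 0.10. Ctsa, a lysosomal carboxypeptidase, fell by 1.52 (SE 0.17, adjusted p = 7.7e-05) on its brightest probe, but its 4 other probes differed by -0.16 to 0.17 and none passed. Galnt18, a glycosyltransferase, and Anxa8, an annexin, were at least 2.30-fold and at least 1.72-fold lower in p63-/- (adjusted p = 7.7e-05 and 0.00147). Galnt18 averaged 5.28 in p63-/- and 6.73 in p63+/- prominences, and Anxa8 averaged 4.87 in p63-/- and 6.26 in p63+/- prominences. The phospholipid transfer protein gene Pltp fell by 1.41, Insyn2b by 1.19 and the interferon-induced Ifitm3 by 0.86. These last 4 lower genes outside the lists, Anxa8, Pltp, Insyn2b and Ifitm3, lie beyond the 15 lowest differences and are named after their values were seen.

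The remaining higher genes had varied roles. Cbln1, a secreted protein of the C1q family known from synapses, read 9.96, 10.69 and 9.71 in p63-/- prominences, against 8.29, 8.16 and 8.27 in p63+/- prominences. The p63+/- values were nearly equal and all lay below p63-/-, and Cbln1 rose by 1.88 (SE 0.21, adjusted p = 7.7e-05). Fgf17, a ligand of the Fgf8 subfamily, read 8.80, 7.87 and 7.80 in p63-/- prominences, against 6.69, 6.22 and 6.63 in p63+/- prominences. Its groups stood apart, and Fgf17 rose by 1.64 (SE 0.28, adjusted p = 0.00775). Slc7a11, the cystine-glutamate exchanger, read 8.81, 8.33 and 8.88 in p63-/- prominences, against 6.71, 6.81 and 7.58 in p63+/- prominences. Again no values overlapped, and Slc7a11 rose by 1.64 (SE 0.23, adjusted p = 7.56e-04), while another probe past the filter differed by 0.36 without passing.

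Cryab, a small heat shock protein, rose by 1.51 (adjusted p = 0.0193, or 0.0515 with the replicate block). Espn, an actin-bundling protein of microvilli and stereocilia, rose by 1.37 (adjusted p = 0.0404), although its 2 dimmer probes past the filter differed by 0.69 and -0.20. The Espn call was kept under 10 of 21 alternative settings of the processing. The glucose transporter Slc2a3 rose by 1.03 (adjusted p = 0.0319, or 0.0877 with the block), the sulfotransferase Chst5 by 1.02 (adjusted p = 0.023) and Tmem54 by 0.90 (adjusted p = 0.0393, or 0.063 with the block). The arrestin-domain gene Arrdc1 averaged 6.28 in p63-/- and 5.31 in p63+/- prominences and was at least 1.71-fold higher in p63-/- (adjusted p = 0.0211, or 0.0706 with the block). The proton pump subunit Atp12a, named after its value was seen, averaged 6.04 in p63-/- and 5.29 in p63+/- prominences and was at least 1.45-fold higher in p63-/- (adjusted p = 0.0255, or 0.0587 with the block). Cryab, Slc2a3, Tmem54, Arrdc1 and Atp12a kept their calls with the block at E12 alone.

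To show sequence beside the lower signal of Sp5, the 250 bases before the start of each called gene were searched in RefSeq promoters of GRCm38.p6, which held 16 of the lower and 10 of the higher genes. The letters searched were those of a Wnt-type motif of Tcf and Lef factors, CTTTGATC or its reverse complement GATCAAAG, which together cover both strands. They were found in 1 of the 16 lower genes (Sp5) and 0 of the 10 higher genes, against 0.827% of 10157 tested genes with a promoter. The Sp5 promoter lies at chr2:70474673-70474922 on the plus strand and is shown 5′ to 3′, with the match in capitals.
Sp5: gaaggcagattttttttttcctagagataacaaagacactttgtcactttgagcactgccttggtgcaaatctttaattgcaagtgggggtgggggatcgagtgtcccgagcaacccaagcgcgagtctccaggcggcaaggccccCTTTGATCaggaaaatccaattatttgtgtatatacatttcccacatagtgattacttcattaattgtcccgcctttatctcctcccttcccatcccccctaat
The match covers bases 147 to 154 of this stretch. It describes the letters in this window and is no evidence of binding.

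The differences found at E12 were looked at on the arrays of the other stages, which are different embryos but share the fit's estimate of the spread. At E10, E11 and E13 the sign was the same in 38, 38 and 37 of the 38 genes, and over all genes tested it was the same in 58.2%, 55.1% and 53.5%. The exception was Cryab, at -0.11 at E13. The called genes passed in the same direction in 20 cases at E10, 19 at E11 and 23 at E13, and 13 of the 38 passed at all 4 stages. At those stages 62, 33 and 21 of all genes were lower past the threshold (0.488%, 0.26% and 0.165%), and 39, 32 and 18 were higher (0.307%, 0.252% and 0.142%). The genes that passed at E12 and at no other stage were Arrdc1, Cryab, Fgfr2, Krt17, Rab25, Sp5 and Tmem54. A test of the E12 difference against the mean of the other stages passed for none of them (limma contrast, adjusted p = 1).

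**Figure D4:**
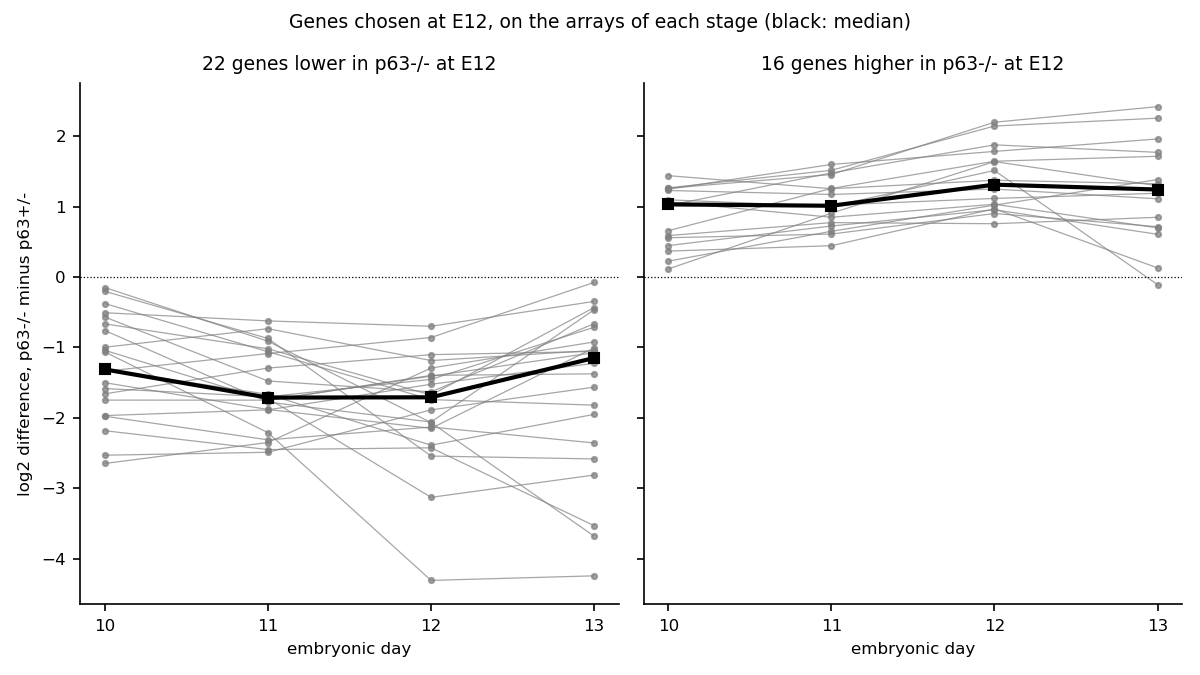
Log2 difference (p63-/- minus p63+/-, 3 arrays each) at E10, E11, E12 and E13 for the 22 genes lower and the 16 genes higher at E12; grey lines are genes and the black line is the median. The genes were chosen at E12, where the values are therefore a description, and the other stages are separate embryos; the median of the lower genes is -1.31 at E10, -1.71 at E11 and -1.15 at E13.

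Some of these genes moved over time within a genotype. From E10 to E13, Krt14 averaged 9.21, 9.10, 8.98 and 10.51 in p63-/- prominences, against 10.52, 10.83, 12.11 and 13.33 in p63+/- prominences. Col17a1 averaged 4.79, 5.23, 5.30 and 6.57 in p63-/- prominences, against 5.85, 7.45, 9.60 and 10.81 in p63+/- prominences. Krt8 averaged 13.07, 12.40, 12.14 and 11.94 in p63-/- prominences, against 11.81, 10.94, 9.94 and 9.53 in p63+/- prominences. So the basal genes were highest at E13 in both genotypes and Krt8 was lowest there, and each stage had its own slide, which cannot be told apart from stage. Wnt3a averaged 5.26, 5.74, 5.04 and 5.08 in p63-/- prominences, against 5.46, 6.61, 7.59 and 7.66 in p63+/- prominences. Its differences were -0.20 at E10, -0.87 at E11, -2.54 at E12 and -2.58 at E13. A test of the E12 difference against the mean of the other stages gave an unadjusted p of 0.00098 for Wnt3a, which did not pass after adjustment. No gene passed in that test, and 211 genes (1.66%) had an unadjusted p under 0.05.

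Markers of other cell types were read beside these differences. None of the 10 marker lists, of 4 to 16 measured genes each, held a call in either direction. Calls made up 0.299% of all genes tested, so few would be found in lists of this size in any case. The skeletal muscle markers had the highest median difference, 0.65, with 16 of 16 measured genes above 0. Their summed normalized intensity on the linear scale was 29999.5, 28899 and 8043 in p63-/- prominences, against 16585, 16754.5 and 7197 in p63+/- prominences. Replicate 3 of both genotypes was thus the lowest array in muscle signal, as it was in Krt14. Neuron markers had a median of -0.32, with sums of 4278, 12613 and 5398 in p63-/- prominences, against 4871, 7952 and 14976.5 in p63+/- prominences. The ranges of both sums overlapped between the genotypes. Within the same-numbered pairs, however, the mean log2 intensity of the muscle markers was higher in p63-/- by 0.84, 0.72 and 0.16, in all 3 pairs. That of the neuron markers differed by 0.21, 0.73 and -1.86. In the pharyngeal endoderm list the median was 0.03, and Sst, the somatostatin gene, stood out on p63+/- replicate 3 at 11.44, against 7.07 to 8.47 on the other 5 arrays. The visceral yolk sac and liver markers had a median of 0.15, with p63-/- replicate 3 highest at a sum of 3349, against 772 and 1228 in the other p63-/- prominences and 1173, 1059.7 and 1785 in p63+/- prominences. The part of these cell types in the called differences was not tested. Without p63+/- replicate 3 there were 38 calls, 27 lower and 11 higher, of which 31 were among the original 38.

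**Figure D5:**
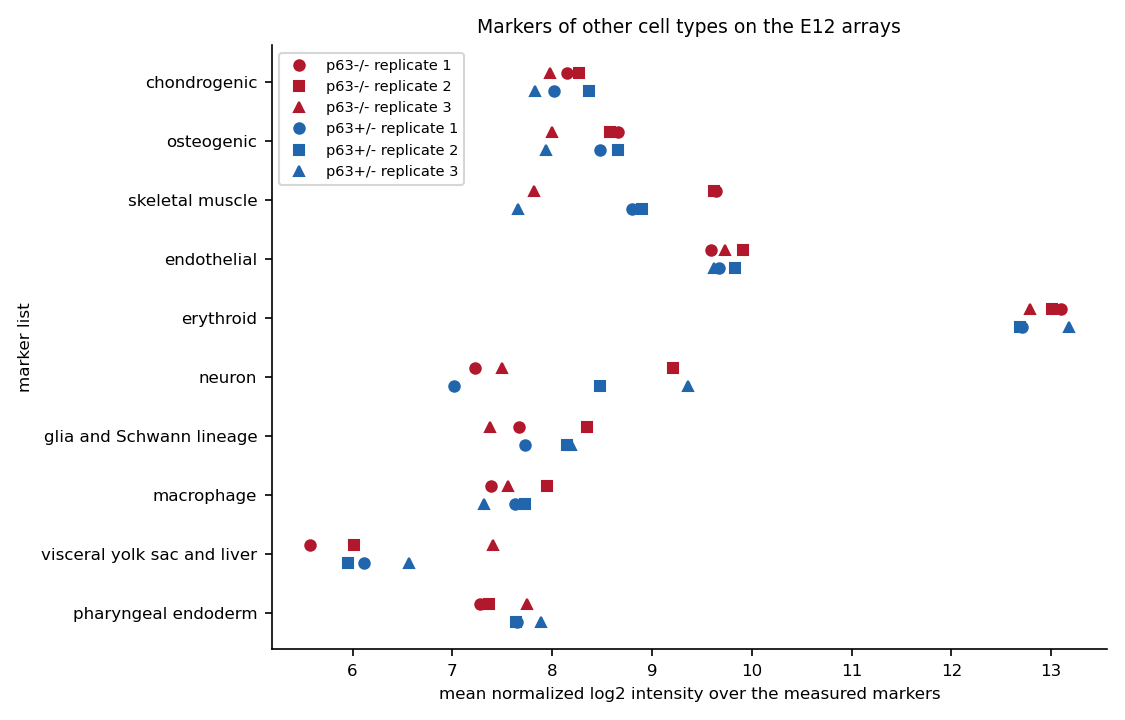
Mean normalized log2 intensity over the measured markers of 10 other cell types on each E12 array, p63-/- (red, upper row of each list) and p63+/- (blue, lower row). Muscle markers are lowest on replicate 3 of both genotypes, and neuron markers are highest on p63-/- replicate 2 and p63+/- replicate 3.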

How the data were processed

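Total RNA of single mandibular prominences was hybridised to 24 Illumina arrays, per the labels' protocols. The deposited table, not normalized, lists 45281 probes with a linear intensity and a detection p-value per array, per the file headers. The authors' processed values, deposited on a log2 scale, served as an alternative. The submitters' processing notes name BeadStudio, lumi and RMA and give no version. Background correction, quantile normalization and the log2 step used neqc of limma 3.58.1 (R 4.3.3, offset 16).

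A probe was kept if its detection p was under 0.05 on 3 or more of 24 arrays (24233 probes), and each gene took its brightest probe (12698 genes). The platform annotation gave 34885 probes 1 gene, 18 several and 10378 none, and RefSeq held 34807 of those named. The limma fit had a mean for each of 8 groups (16 residual and 2.96 prior degrees of freedom). The E12 contrast was p63-/- minus p63+/-, with Benjamini-Hochberg adjustment over all genes and a threshold of 0.05; a second contrast set it against the mean of the other stages. A group that detected a gene on 0 or 1 of 3 arrays has a bound only, written "at least N-fold". Background compresses the differences of dim genes, and the number of arrays limits the precision.

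The genes named are Trp63, the 15 lowest and 15 highest calls, the 6 smallest p against other stages, and from each list up to 4 calls or else the 2 largest values; further list members are named for their role after values were seen. Members and lists were chosen with earlier results of these data known. The labels put both genotypes' embryos in shared litters without saying that a number marks a litter. At E12 the same-numbered arrays deviated together (r = 0.408, 0.285 and 0.427). The numbers were taken to pair the samples in the replicate block and the same-numbered differences only. The main fit, which gave the 38 calls, did not pair them. Only the fit was tested on simulated data, drawn with independent normal noise around normalized group means. Of 12698 genes, 100 changed by 1 log2 unit and 100 by 2 at E12, and 87% and 96% were recovered, with 10 false calls. Background correction, normalization, the detection filter, the choice of probe and shared deviations of same-numbered arrays were not simulated. The recovered shares may therefore not hold for the real arrays.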

Additional observations from a re-analysis of the deposited data

Results flagged for a closer look

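Only the named genes were searched for opposite directions between stages. In 3 of them every E12 p63-/- array lay on 1 side of the p63+/- arrays, and every p63-/- array of another stage lay on the opposite side. All 3 were named for their small p against other stages, a choice that favours such a pattern. The share of all genes with this pattern was not counted. Spry4, a feedback inhibitor of Fgf signalling, differed by 0.52 at E12 (p63-/- minus p63+/-), against -0.55 at E11 and -0.34 at E13. Zdhhc18, a palmitoyltransferase, differed by 0.43 at E12, against -0.35 at E11. Tmem213 differed by -0.19 at E12, against 0.86 at E10, 0.61 at E11 and 0.24 at E13, and was not detected on any E12 array. The contrast of E12 with the mean of the other stages gave unadjusted limma p-values of 0.000182 for Spry4, 0.000309 for Zdhhc18 and 0.000508 for Tmem213, and an adjusted p of 1 for each. None of the 3 differences passed at E12 itself.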

How the results depend on the processing

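The E12 comparison gave 38 calls. It gave 8 when the E12 arrays alone were normalized and fitted and 8 when they alone entered the fit, each 7 lower and 1 higher, 62 with array weights, and 23 to 38 when each E12 array was left out in turn, fewest without p63+/- replicate 2 (23) and p63+/- replicate 1 (24). Other settings gave 27 to 49. The split of lower to higher calls, 22 to 16 as reported, was 19 to 19 with the mean of a gene's probes and 24 to 25 without E10 p63-/- replicate 3. With the replicate block there were 49 calls, 32 of them among the 38; the genes it lost are given beside their values. Anxa8, Col17a1, Diras2, Fermt1, Krt18, Trim29 and Wnt3a passed under all 21 alternatives, and none of the 38 changed sign under any. Krt7 kept its call under the fewest, 8 of 21. Next came Tmem54 (9 of 21), Atp12a (9 of 20), and Espn and Rab25 (10 of 21 each). Trp63 passed at -0.97 with quantile normalization alone, at -1.04 with an offset of 50 and at -1.08 without E10 p63-/- replicate 3, and ranged from -1.21 to -0.96 when an E12 array was left out, without passing. No gene passed in the test against other stages under any alternative run. The replicate block at E12 alone was chosen after seeing the data and gave 41 calls. Groups of 3 arrays limit what could be detected, and dim genes have only bounds. The causes of these shifts were not tested.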

Other observations

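Besides the 3 genes above, the smallest p-values in the test of E12 against the other stages belonged to Hoxa5, Sst and Prr15l, none of which passed after adjustment. Hoxa5 differed by 0.02 at E12, where no array detected it, and by -2.78 at E13. Sst read 7.07, 8.10 and 8.43 in E12 p63-/- prominences, against 7.92, 8.47 and 11.44 in E12 p63+/- prominences, and differed by 2.47 at E10 and 3.61 at E11. Prr15l differed by 0.02 at E12, against 1.70 at E10, 0.77 at E11 and 0.53 at E13.

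Genes outside the 38 came up repeatedly among the alternatives and were noticed after their values were seen. Rhbdl3, a rhomboid-family gene, differed by -1.20 (adjusted p = 0.0509) and passed under 7 of 21 alternatives. Lypd3, a surface protein of stratified epithelia, differed by -1.35 (adjusted p = 0.16) and passed under 6. With the Xist value of each of the 24 arrays as a covariate, 31 genes passed, 29 of them among the 38.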
